A study of Homo sapiens with 6 samples.

Results

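Messenger RNA splicing depends on RNA-binding proteins that mark exons and introns for the spliceosome. SR proteins, which carry a domain rich in arginine and serine, mostly promote the use of exons, whereas heterogeneous nuclear ribonucleoproteins (hnRNPs) bind nascent transcripts and often oppose that use. U2AF recognises the end of the intron, and the SF3A and SF3B complexes, parts of the U2 small nuclear ribonucleoprotein (snRNP), settle on the branch point nearby. PTBP1, MBNL1 and RBFOX2 bind short motifs around regulated exons, and their dosage is known to alter exon choice in development and in tumour cells. The genes described here are those whose array probe carries an accession that maps to a symbol beginning with HNRNP or with SRSF and a number, together with U2AF1, U2AF2, SF3A1 to SF3A3, SF3B1 to SF3B4, PTBP1, MBNL1 and RBFOX2. Pseudogenes were left out.

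This choice gave 46 of the 21743 genes with a symbol on the array, and 79 of its 50599 probes. They comprised 22 hnRNP genes, 12 SR genes, 7 genes of SF3A and SF3B, 2 U2AF genes and the 3 regulators. The samples were MDA-MB-231 cells, an established line from a triple-negative breast cancer, collected 72 h after transfection with a precursor of hsa-miR-205-5p, a precursor of hsa-miR-214-3p, or a scrambled negative-control precursor. Each group had 2 arrays, so the data set held 6, and every fold change rests on 2 arrays against 2. All groups shared the cell line, the reverse transfection and the 1-colour Agilent gene expression array, and 1 line stands for 1 genetic background. The labels do not say whether replicates came from separate cultures, so the p-values measure the spread between these arrays, which may be technical.

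The mature sequences are shown because they are what distinguished the 2 transfected groups. Capitals mark the seed, bases 2 to 8, which pairs with target transcripts. The sequences are from RefSeq (GRCh38.p14).
hsa-miR-205-5p: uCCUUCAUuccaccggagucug
hsa-miR-214-3p: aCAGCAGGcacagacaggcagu
The first is encoded at chr1:209432166-209432187 on the plus strand, in MIR205 and within the span of the long noncoding gene MIR205HG. The other lies at chr1:172138816-172138837 on the minus strand, in MIR214 and within the spans of DNM3 and the long noncoding gene DNM3OS. The seeds differ, so the precursors are distinct agents that share 1 control group.

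Probes entered the test if any group had both of its arrays well above background for them, and a gene was represented by its brightest tested probe. Signals are given as log2 signal relative to the 75th percentile of the same array, so 0 is that percentile. Because signal also depends on probe sequence, levels of different probes were not compared, other than to pick the brightest. In all, 42 of the 46 genes and 75 of the 79 probes were tested, among 11974 genes and 18464 probes. HNRNPCL1, HNRNPUL2 and SRSF1, each with 1 probe, were not well above background on any array, and SRSF12 was so on 1 of 6. The SRSF1 probe is annotated to 1 transcript of the gene, so whether the gene was expressed cannot be read from it. That single SRSF12 value, 1.05 in scrambled control replicate 1, stood apart from values of -4.54 to -2.995 on the other 5 arrays.

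Between 35.4% and 42.2% of spots were well above background per array, with no saturated spot. The root-mean-square difference between replicates was 0.34 log2 units for hsa-miR-214-3p, 0.51 for hsa-miR-205-5p and 0.67 for the scrambled control, and over the 42 genes it was 0.27, 0.47 and 0.54. The line's mesenchymal markers VIM, CD44, AXL, LGALS1 and S100A4 were well above background on all 6 arrays, and ESR1 and PGR, the hormone receptor genes the line lacks, on none. Of the markers listed as low or absent in the line, CDH1, EPCAM, GATA3 and KRT19 were well above background on all 6. CDH1 was 1.96 and EPCAM 2.40 log2 units higher with hsa-miR-205-5p than in the control, and KRT19 was 2.26-fold higher. Of 9 markers of other cell types, 5 were on no array and 1, CD68, on all 6. With hsa-miR-205-5p CD68 was 2.08-fold lower and PECAM1 at least 2.255-fold lower. The part of these marker changes in the results below was not tested.

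Changes against the control were spread much as over all genes. The log2 fold change against the scrambled control lay within ±0.5 for 26 of 42 genes with hsa-miR-205-5p, or 61.9% against 53.5% of all genes tested, and for 32 of 42 with hsa-miR-214-3p, or 76.2% against 68.6%. It lay within those bounds in both comparisons for 18 genes, or 42.9% against 38.5% of all genes. The median over the 42 genes was 0.11 with hsa-miR-205-5p, where the median of all genes was 0.08, and 0.14 with hsa-miR-214-3p, where that of all genes was -0.01. Scaling each array to its median moved the all-gene medians to -0.31 and -0.18. The difference between the 42 genes and all genes, 0.03 and 0.15, cannot change with a scaling that shifts a whole array. Of the 11 settings that moved the first, 7 turned its sign, to -0.24 without a filter on dim probes, -0.045 after quantile normalization, -0.088 after normexp background correction, -0.044 in the authors' table, -0.092 with a gene's probes averaged, -0.12 with its dimmest probe and -0.027 without hsa-miR-205-5p replicate 2. The second turned only without a filter on dim probes, to -0.030.

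**Figure D1:**
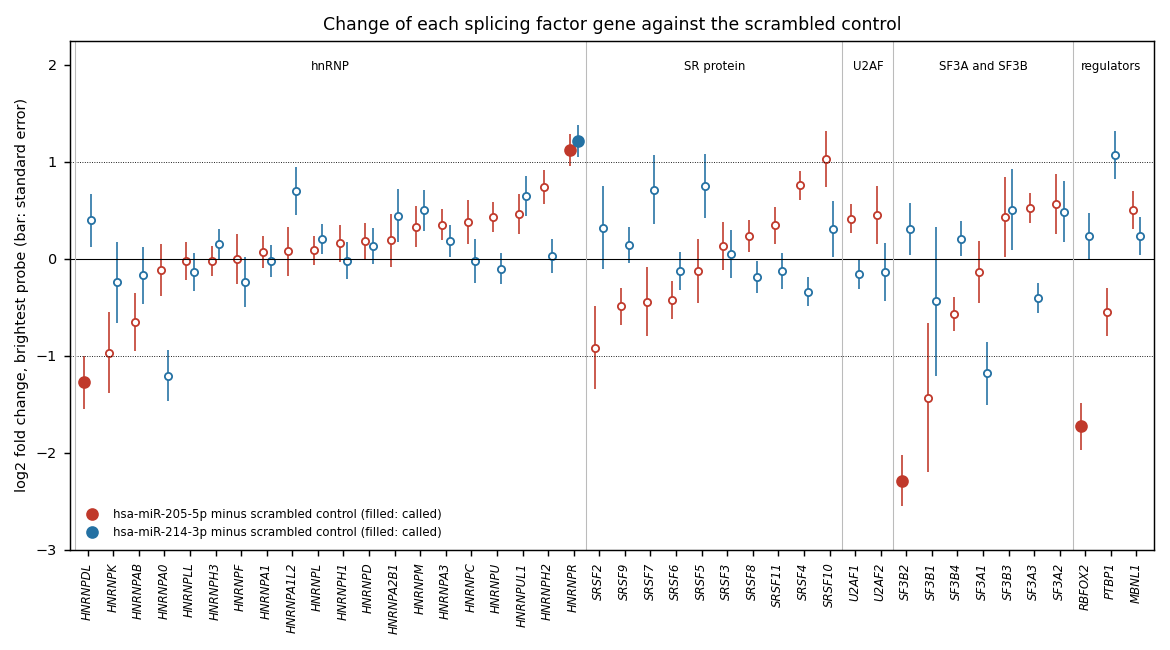
Log2 fold change (y axis) of the brightest probe of each of the 42 tested genes (x axis, by family) against the scrambled control, red for hsa-miR-205-5p and blue for hsa-miR-214-3p, from 2 arrays against 2; bars are standard errors, filled points are called genes and dotted lines mark 2-fold. SF3B2, RBFOX2 and HNRNPDL lie below the lower dotted line with hsa-miR-205-5p, and HNRNPR lies above the upper one with both precursors.

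SF3B2, RBFOX2 and HNRNPDL were downregulated with hsa-miR-205-5p, by 4.88-fold, 3.31-fold and 2.42-fold, and HNRNPR was upregulated by 2.18-fold. SF3B2 is a subunit of SF3B, RBFOX2 is a regulator of alternative exons with a role in mesenchymal splicing programmes, HNRNPDL is an hnRNP related to HNRNPD, and HNRNPR is an hnRNP of the SYNCRIP type. A gene was called when the adjusted p from limma, over all tested probes, was under 0.05 and the change was at least 2-fold. The 3 genes called lower were 7.14% of the 42, where 7.98% of all genes were called lower. The 1 called higher was 2.38%, where 4.78% of all genes were, so neither share exceeded the background. In bulk RNA, fewer cells expressing a gene and less RNA per cell cannot be told apart.

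SF3B2 gave signals of 5.48 and 6.11 in the scrambled control, 3.57 and 3.45 with hsa-miR-205-5p, and 5.92 and 6.29 with hsa-miR-214-3p. Both hsa-miR-205-5p arrays lay well below the other 4, which overlapped between groups. The log2 fold change with hsa-miR-205-5p was -2.29 ± 0.27 (standard error, limma adjusted p = 0.00924), and with hsa-miR-214-3p it was 0.31 ± 0.27 (adjusted p = 0.538). A single probe measured this gene.

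RBFOX2 gave 1.75 and 2.34 in the control, 0.41 and 0.22 with hsa-miR-205-5p, and 2.31 and 2.26 with hsa-miR-214-3p. The hsa-miR-205-5p arrays were again apart from the other 4. Its log2 fold change with hsa-miR-205-5p was -1.73 ± 0.24 (adjusted p = 0.0124), on a probe printed in 10 spots per array. The other RBFOX2 probe, printed once, did not pass (adjusted p = 0.197). On it, the hsa-miR-205-5p replicates were at -0.71 and -3.41, and only 1 of these 2 arrays had the probe well above background, so no fold is given.

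HNRNPDL gave 1.83 and 2.60 in the control, 0.91 and 0.97 with hsa-miR-205-5p, and 2.64 and 2.59 with hsa-miR-214-3p. Both hsa-miR-205-5p arrays lay below the other 4, and the control arrays were 0.76 apart, with those of hsa-miR-214-3p close to the higher one. The log2 fold change was -1.27 ± 0.27 (adjusted p = 0.0329) on this probe and -0.91 ± 0.36 (adjusted p = 0.128) on the gene's other probe. Without scrambled control replicate 2 the first estimate was -0.89, under 2-fold.

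HNRNPR was called with both precursors, and how many of all genes were called with both was not counted. Its signals were -0.88 and -0.90 in the control, 0.15 and 0.33 with hsa-miR-205-5p, and 0.23 and 0.42 with hsa-miR-214-3p. The control arrays lay below all 4 others, and the transfected groups overlapped. The log2 fold change was 1.13 ± 0.17 (adjusted p = 0.014) with hsa-miR-205-5p and 1.22 ± 0.17 (adjusted p = 0.037) with hsa-miR-214-3p. Over the alternatives the hsa-miR-205-5p value ran from 0.48, under 2-fold, to 1.22. Only 1 probe measured HNRNPR. The difference between the precursors was -0.09, with a 95% interval of -0.51 to 0.32. Both comparisons used the same control arrays.

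The calls with hsa-miR-205-5p changed when single arrays were left out. Without hsa-miR-205-5p replicate 2, none of the 42 genes, and none of all genes, was called in limma, and the adjusted p of SF3B2 rose to 0.0592 and that of RBFOX2 to 0.0696; at an unadjusted p under 0.05 with all arrays, 5 of the 42 were lower and 8 higher, or 11.9% and 19%, against 18.9% and 20.6% of all genes. Without scrambled control replicate 1, 5 genes were called lower, or 11.9% against 11.7% of all genes. HNRNPR and HNRNPDL lost their hsa-miR-205-5p calls when any 1 of the 4 precursor arrays was left out, whereas 2 genes, or 4.76%, were called higher with either 1 of the control arrays left out, against 8.89% of all genes without replicate 1 and 4.39% without replicate 2.

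With hsa-miR-214-3p, HNRNPR was the only call, and no gene was called lower. The 1 gene called higher was 2.38% of the 42, where 1.09% of all genes were called higher, and 2.03% of all genes were called lower. At an unadjusted p under 0.05, 3 of the 42 genes were lower and 4 higher, or 7.14% and 9.52%, against 13.4% and 10.8% of all genes. HNRNPA0, a small single-exon hnRNP gene, gave -0.93 and -0.82 in the control, -0.90 and -1.07 with hsa-miR-205-5p, and -1.72 and -2.43 with hsa-miR-214-3p. Only 1 of the 2 hsa-miR-214-3p arrays had its probe well above background, and the change did not pass (adjusted p = 0.081). The log2 fold change of SF3A1, a subunit of SF3A, was -1.18 ± 0.32 (adjusted p = 0.115). The HNRNPR call with hsa-miR-214-3p was lost without any 1 array other than scrambled control replicate 2, and without that array 4 of the 42 genes were called higher, or 9.52% against 5.47% of all genes. In each of the fits in which the call was lost by leaving out an array, 0 of all genes were called, and over all the alternatives the log2 fold change of HNRNPR stayed between 0.56 and 1.31.

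**Figure D2:**
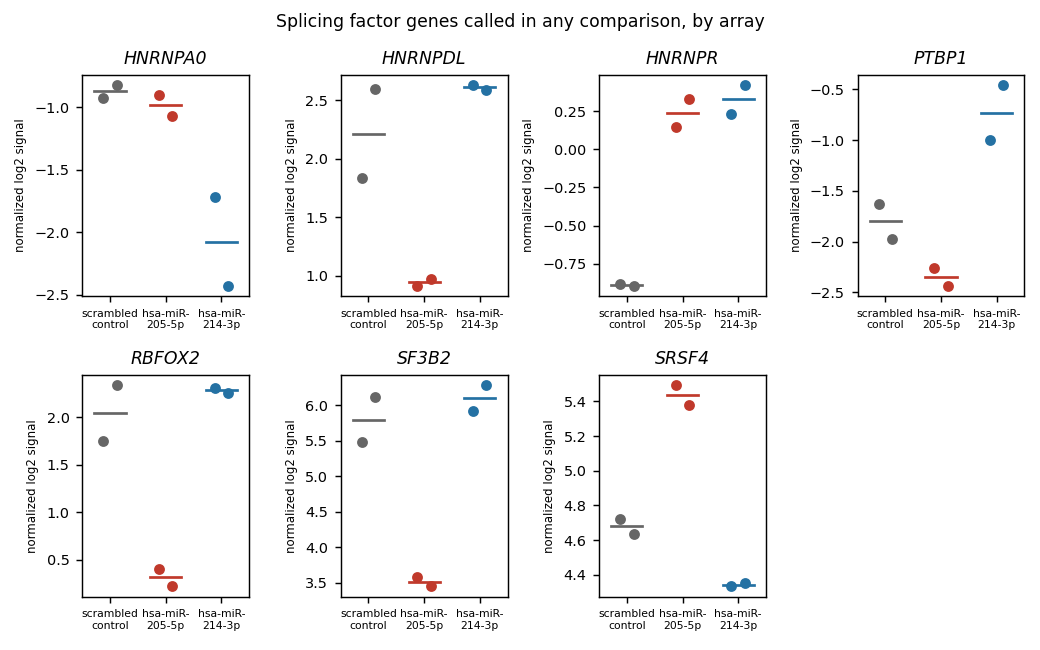
Log2 signal relative to the array's 75th percentile (y axis, a separate range in each panel) on each of the 2 arrays per group (points) with the group mean (line), for the 7 genes called in any of the 3 comparisons. For SF3B2, RBFOX2 and HNRNPDL the hsa-miR-205-5p points lie below all others, and for HNRNPR the scrambled control points do.

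Set directly against hsa-miR-214-3p, hsa-miR-205-5p gave lower SF3B2, RBFOX2 and HNRNPDL and higher SRSF4. PTBP1 was also called lower and HNRNPA0 higher, each on a probe that was dim in 1 of the groups. The 4 genes called lower were 9.52% of the 42, where 11.3% of all genes were called lower, and the 2 called higher were 4.76%, where 9.18% of all genes were. The log2 difference was -2.59 ± 0.27 for SF3B2 (adjusted p = 0.00435), -1.97 ± 0.24 for RBFOX2 (adjusted p = 0.00564) and -1.67 ± 0.27 for HNRNPDL (adjusted p = 0.0113). This comparison does not use the control arrays for its means.

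PTBP1, a repressor of many alternative exons, gave -1.63 and -1.97 in the control, -2.26 and -2.44 with hsa-miR-205-5p, and -1.004 and -0.45 with hsa-miR-214-3p. Both hsa-miR-214-3p arrays lay above the control. With hsa-miR-205-5p neither array had this probe well above background, which makes the signal there a bound that cannot be ranked against the control. The gene was at least 1.85-fold lower than with hsa-miR-214-3p (adjusted p = 0.00977). That bound is under 2-fold, so the call rests on the fitted signals of that dim probe. Over the alternatives the fitted log2 difference ran from -1.89 to -0.30, the latter smaller than the bound. Against the control, neither precursor passed. The adjusted p was 0.174 with hsa-miR-205-5p, for which no fold is given, and 0.0892 with hsa-miR-214-3p, where the log2 fold change was 1.07 ± 0.25.

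SRSF4, a large SR protein, gave 4.72 and 4.64 in the control, 5.50 and 5.38 with hsa-miR-205-5p, and 4.33 and 4.35 with hsa-miR-214-3p. The replicates lay close together, and the control lay between the transfected groups. The log2 difference between precursors was 1.10 ± 0.15 (adjusted p = 0.0076). Against the control, SRSF4 was 1.69-fold higher with hsa-miR-205-5p (adjusted p = 0.0276), short of the 2-fold limit, and its log2 fold change with hsa-miR-214-3p was -0.34 ± 0.15 (adjusted p = 0.264). For HNRNPA0 the adjusted p between precursors was 0.032, and no size is given because only 1 of the 2 hsa-miR-214-3p arrays was well above background.

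The direct calls changed when single arrays were left out. Without either control array, which enters here only through the spread, 6 genes were called lower and 2 higher, where 12.5% and 10.03% of all genes were. Without hsa-miR-205-5p replicate 2 or hsa-miR-214-3p replicate 1, 2 genes, or 4.76%, were called lower, where 7.18% and 2.80% of all genes were. Without hsa-miR-214-3p replicate 2 only SF3B2 was, or 2.38% against 1.55% of all genes. The count called higher was 1 without either hsa-miR-205-5p array, or 2.38% against 5.41% and 5.60% of all genes, and 0 without either hsa-miR-214-3p array, against 2.21% and 1.17%.

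By role, the genes of the branch-point complexes differed among themselves. In SF3B, only SF3B2 passed against the control, while for SF3B1, the subunit mutated in several blood cancers, the adjusted p was 0.234. A single probe measured SF3B1. Its hsa-miR-205-5p replicates were at -0.44 and -2.75, only the first of them well above background, so no fold is given. The control arrays were at -0.56 and 0.23. SF3B3 had 0.43 ± 0.41 and SF3B4 -0.57 ± 0.18 with hsa-miR-205-5p, and 0.51 and 0.21 with hsa-miR-214-3p, none passing. In SF3A, the values with hsa-miR-205-5p were -0.14 for SF3A1, 0.57 for SF3A2 and 0.52 for SF3A3, and no adjusted p was under 0.05. SF3B4 differed between the precursors by -0.78 ± 0.18 (adjusted p = 0.0273) and SF3A3 by 0.92 ± 0.16 (adjusted p = 0.0121), both short of 2-fold. The other SF3A3 probe gave 0.65 (adjusted p = 0.0342).

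U2AF1 and U2AF2, the small and large subunits of U2AF, had log2 fold changes of 0.42 ± 0.15 and 0.45 ± 0.30 with hsa-miR-205-5p and of -0.15 and -0.14 with hsa-miR-214-3p. Neither passed against the control. Between the precursors U2AF1 differed by 0.57 ± 0.15 (adjusted p = 0.0394), short of 2-fold. The other U2AF1 probe gave -1.59 with a standard error of 0.65 (adjusted p = 0.14), with hsa-miR-205-5p replicates at 3.16 and 1.45. MBNL1, a regulator of developmental exon switches, had 0.50 ± 0.19 (adjusted p = 0.125) and 0.24 ± 0.19 (adjusted p = 0.517).

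Among the 20 tested hnRNP genes, the log2 fold change with hsa-miR-205-5p ran from -1.27 for HNRNPDL to 1.13 for HNRNPR, with a median of 0.13. With hsa-miR-214-3p it ran from -0.24 for HNRNPK to 1.22 for HNRNPR, leaving out HNRNPA0, for which no size is given, and the median of the 20 was 0.08. HNRNPH2 passed with hsa-miR-205-5p at 1.68-fold higher (adjusted p = 0.0407), under the fold limit. Over the 10 tested SR genes the range was -0.92 to 1.03 with hsa-miR-205-5p and -0.34 to 0.75 with hsa-miR-214-3p, and limma called 0 of them against the control, with 3 and 0 at an unadjusted p under 0.05, or 30% and 0% against 39.5% and 24.2% of all genes.

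HNRNPA1, an abundant hnRNP that represses exons, is described because the study's text prints the symbol NRNPA1, taken here to mean this gene. The study lists it among hsa-miR-205-5p targets of the MYC network. It took such targets from predicted genes that fell with this precursor, and does not say which probe was used. The brightest HNRNPA1 probe gave 8.70 and 8.51 in the control, 8.69 and 8.66 with hsa-miR-205-5p, and 8.66 and 8.50 with hsa-miR-214-3p. The 3 groups overlapped. The log2 fold changes were 0.07 ± 0.16 with a 95% interval of -0.34 to 0.48, and -0.02 ± 0.16 with an interval of -0.43 to 0.39. The sign of the first turned under 3 of the other scalings or tables and under another background correction, where it lay between -0.32 and -0.09. The gene's dim probe gave -1.34 and -1.62 in the control, -1.57 and -3.43 with hsa-miR-205-5p, and -0.92 and -0.82 with hsa-miR-214-3p. Only 1 of the 2 hsa-miR-205-5p arrays, replicate 1, was well above background, so no fold is given. The adjusted p with hsa-miR-205-5p was 0.26, and without replicate 1 it was 0.0384. HNRNPA1 has near-identical copies, HNRNPA1L2 among them, and hybridisation across copies was not tested. The 5 HNRNPA1L2 probes had log2 fold changes from -1.26 to 0.08 with hsa-miR-205-5p, none called.

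As levels, HNRNPA2B1, the hnRNP that binds many transported transcripts, lay between 7.19 and 7.91 over the 6 arrays, and HNRNPD, which binds AU-rich elements, between 6.96 and 7.40. SRSF6 lay between 6.63 and 7.34, SRSF3 between 6.59 and 7.22, and SRSF5 between 5.66 and 6.96. On the brightest probe of each, to which these levels belong, no comparison was called.

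Probes of the same gene did not always change alike. Of the 42 genes, 22 had more than 1 tested probe. The log2 fold changes of 1 gene's probes spanned at least 1 unit in 6 of 22 genes with hsa-miR-205-5p, or 27.3% against 28.9% of the 2680 such genes on the array. With hsa-miR-214-3p they did so in 4, or 18.2% against 10.1%. A within-array test of each gene's brightest probe against its others called 3 of 33 pairs with hsa-miR-205-5p, where 12% of all 3411 pairs were called. It called none with hsa-miR-214-3p, where 0 of all pairs were called and 3 of the 33, or 9.09%, passed at an unadjusted p under 0.05 with 1 log2 unit, against 4.66% of all pairs. Between the precursors it called 2 of 33, where 20.4% of all pairs were called.

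**Figure D3:**
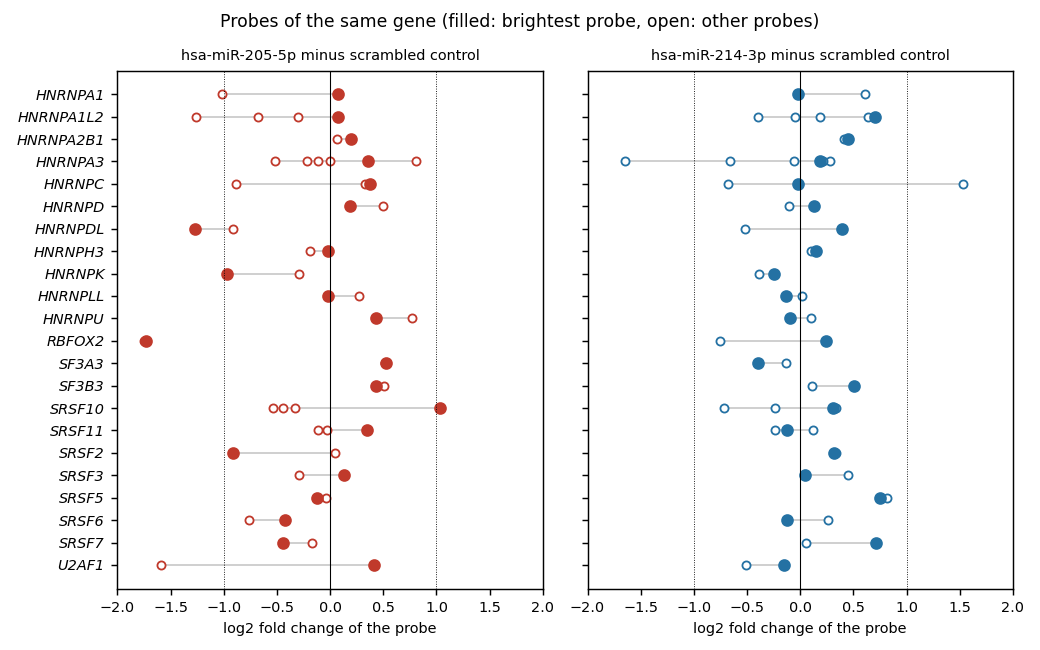
Log2 fold change against the scrambled control (x axis) of every tested probe of the 22 genes with more than 1 (y axis), filled for the brightest probe and open for the others, with grey lines joining probes of 1 gene and dotted lines at 2-fold. With hsa-miR-205-5p the brightest SRSF10 probe lies at 1.03 and its other 3 probes below 0, 1 of them on a probe too dim for a size, and with hsa-miR-214-3p 1 HNRNPA3 probe lies at -1.65.

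All 3 called pairs with hsa-miR-205-5p were of SRSF10, an SR protein that can act as a repressor of splicing. Its brightest probe gave 3.45 and 4.12 in the control, 5.03 and 4.61 with hsa-miR-205-5p, and 4.20 and 3.99 with hsa-miR-214-3p. Both hsa-miR-205-5p arrays were above the others, and the log2 fold change was 1.03 ± 0.29 (adjusted p = 0.0609). Of the other 3 probes, none passed, and the log2 fold changes of 2 were -0.33 and -0.45. The change of the brightest probe exceeded those of these 2 by 1.36 ± 0.30 and 1.48 ± 0.29 log2 units (adjusted p = 0.0436 and 0.0341). The pair with the last probe was called too (adjusted p = 0.0313), but neither hsa-miR-205-5p array had that probe well above background, so no size is given. The array's annotation places the brightest probe on a different SRSF10 transcript from the other 3. These within-array differences cannot change with a scaling that shifts a whole array, but other processing can change them. The pair calls were lost without any 1 array other than scrambled control replicate 1, and the share of all pairs called in those fits was not counted.

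HNRNPA3, a relative of HNRNPA1 and HNRNPA2B1, had 6 tested probes, all annotated to 1 transcript. One of them, A_23_P86660, gave 2.77 and 2.77 in the control, 2.81 and 2.73 with hsa-miR-205-5p, and 1.16 and 1.08 with hsa-miR-214-3p. The hsa-miR-214-3p arrays lay far below the other 4, which overlapped. Its log2 fold change with hsa-miR-214-3p was -1.65 ± 0.15 (adjusted p = 0.0257), and the difference between precursors was 1.65 ± 0.15 (adjusted p = 0.00397). With hsa-miR-214-3p it was the 1 probe called lower of the 75 tested, or 1.33%, against 1.68% of all tested probes. The brightest HNRNPA3 probe gave 6.62 and 6.51 in the control, 6.82 and 7.03 with hsa-miR-205-5p, and 6.73 and 6.78 with hsa-miR-214-3p, so that hsa-miR-214-3p changed it by 0.19 ± 0.16 (adjusted p = 0.542). The other 4 probes ranged from -0.66 to 0.28. Between the precursors, the brightest probe and A_23_P86660 changed unequally, by -1.48 ± 0.23 (adjusted p = 0.0132). The other pair called between the precursors was of SRSF10 (adjusted p = 0.0196), with the same dim probe, so its size is left out as well. Fewer such pairs were called when any 1 array of either precursor was dropped, and the share of all pairs called in those fits was not counted. The A_23_P86660 call against the control was lost without any 1 array other than scrambled control replicate 2. In those fits 0 of all genes were called, and over all the alternatives its log2 fold change with hsa-miR-214-3p stayed between -1.82 and -1.26.

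**Figure D4:**
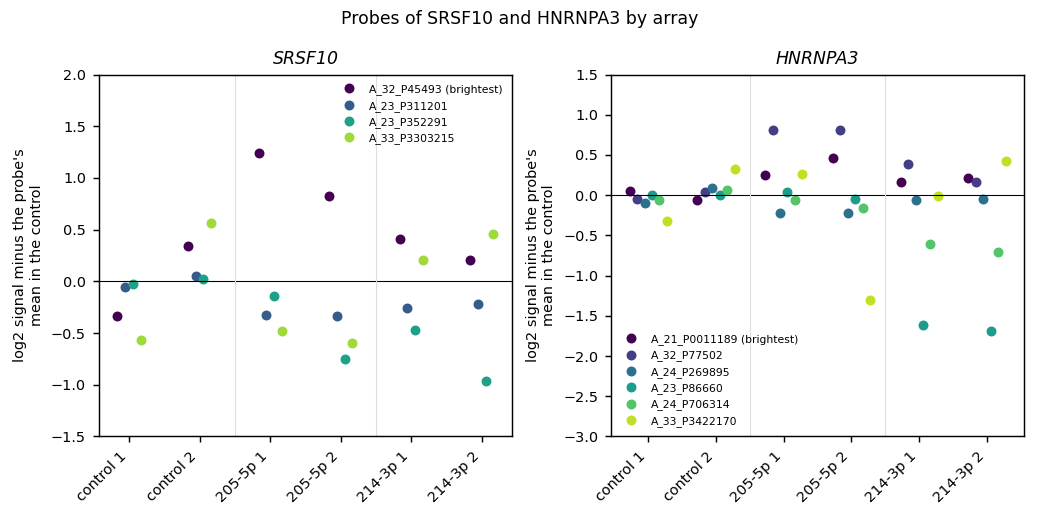
Log2 signal of each tested probe of SRSF10 (left) and HNRNPA3 (right) on each of the 6 arrays (x axis), minus the same probe's mean over the 2 scrambled control arrays (y axis); each colour is 1 probe. The brightest SRSF10 probe rises above the others on the hsa-miR-205-5p arrays, and A_23_P86660 of HNRNPA3 falls on the hsa-miR-214-3p arrays.

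Further probes that were not the brightest were called between the precursors. Of the 75 tested probes, 6.67% were called lower and 5.33% higher in that comparison, against 11.6% and 8.37% of all tested probes. For HNRNPC, which binds uridine tracts and keeps cryptic exons out, 1 probe gave 3.35 and 2.98 in the control, 3.46 and 3.53 with hsa-miR-205-5p, and 2.48 and 2.502 with hsa-miR-214-3p. The log2 difference between the precursors was 1.01 ± 0.19 (adjusted p = 0.0149), against 0.40 ± 0.23 (adjusted p = 0.222) on the brightest probe, which gave 4.14 and 3.74, 4.52 and 4.11, and 3.91 and 3.94 in the same order. A further HNRNPC probe gave -0.18 and 2.76 on the 2 control arrays, a gap of nearly 3 log2 units between replicates, and was not called. For SRSF6, the probe annotated to a noncoding transcript of the gene gave 1.35 and 1.68 in the control, 0.83 and 0.68 with hsa-miR-205-5p, and 1.67 and 1.88 with hsa-miR-214-3p. The log2 difference between the precursors was -1.02 ± 0.19 (adjusted p = 0.016). The brightest SRSF6 probe gave 7.34 and 6.98 in the control, 6.85 and 6.63 with hsa-miR-205-5p, and 7.03 and 7.04 with hsa-miR-214-3p, a difference of -0.29 ± 0.20 (adjusted p = 0.283).

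The rest of the splicing pathway was read from 105 further genes, of which 97 were tested. With hsa-miR-205-5p, 5 were called lower, or TNPO3, SNRPA1, PRPF8, PRPF6 and SNRNP25, and 3 higher, or ESRP2, SNRPC and QKI. These were 5.15% and 3.09% of the 97, against 7.98% and 4.78% of all genes. With hsa-miR-214-3p, 1 was called lower, SON, and 1 higher, QKI, or 1.03% each, against 2.03% and 1.09% of all genes. The calls with hsa-miR-205-5p were 4 lower and 1 higher of 38 snRNP genes, 1 lower of 6 genes for SR protein kinases and import, 2 higher of 39 other regulators and 0 of 14 activation and catalysis genes, of which 6, or 42.9% against 39.5% of all genes, had an unadjusted p under 0.05 in limma. The median log2 fold change of the 97 was 0.03 with hsa-miR-205-5p and 0.04 with hsa-miR-214-3p.

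TNPO3, which imports SR proteins into the nucleus, gave 2.54 and 3.51 in the control, 0.94 and 1.04 with hsa-miR-205-5p, and 3.31 and 3.40 with hsa-miR-214-3p. Its log2 fold change with hsa-miR-205-5p was -2.03 ± 0.33 (adjusted p = 0.0175). PRPF8, the protein at the centre of the spliceosome, gave 4.83 and 5.05, 3.66 and 3.58, and 5.34 and 5.49 in the same order, with hsa-miR-205-5p lower by a log2 difference of -1.32 ± 0.17 (adjusted p = 0.0108). PRPF6, which bridges the tri-snRNP, fell by 1.11 (adjusted p = 0.0129), SNRPA1, a U2 snRNP protein, by 1.82 (adjusted p = 0.00865) and SNRNP25, a protein of the minor spliceosome, by 1.09 on the log2 scale (adjusted p = 0.0288). In each of these genes both hsa-miR-205-5p arrays lay below the other 4.

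ESRP2, an epithelial splicing regulator, gave 2.01 and 1.64 in the control, 3.93 and 3.90 with hsa-miR-205-5p, and 2.91 and 2.93 with hsa-miR-214-3p. It was 4.24-fold higher with hsa-miR-205-5p (adjusted p = 0.00799). With hsa-miR-214-3p its log2 fold change was 1.09 ± 0.19 (adjusted p = 0.0507). QKI, a regulator associated with mesenchymal exon choice and circular RNA formation, gave 1.69 and 1.51, 2.97 and 2.90, and 2.65 and 2.69 in the same order. It was 2.52-fold higher with hsa-miR-205-5p (adjusted p = 0.0094) and 2.10-fold higher with hsa-miR-214-3p (adjusted p = 0.0405). SNRPC, a U1 snRNP protein, was 3.39-fold higher with hsa-miR-205-5p (adjusted p = 0.014). SON, a speckle protein needed for weak splice sites, gave 2.87 and 2.84 in the control, 3.19 and 3.18 with hsa-miR-205-5p, and 1.76 and 1.82 with hsa-miR-214-3p, and fell with hsa-miR-214-3p by a log2 difference of -1.07 ± 0.15 (adjusted p = 0.037).

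**Figure D5:**
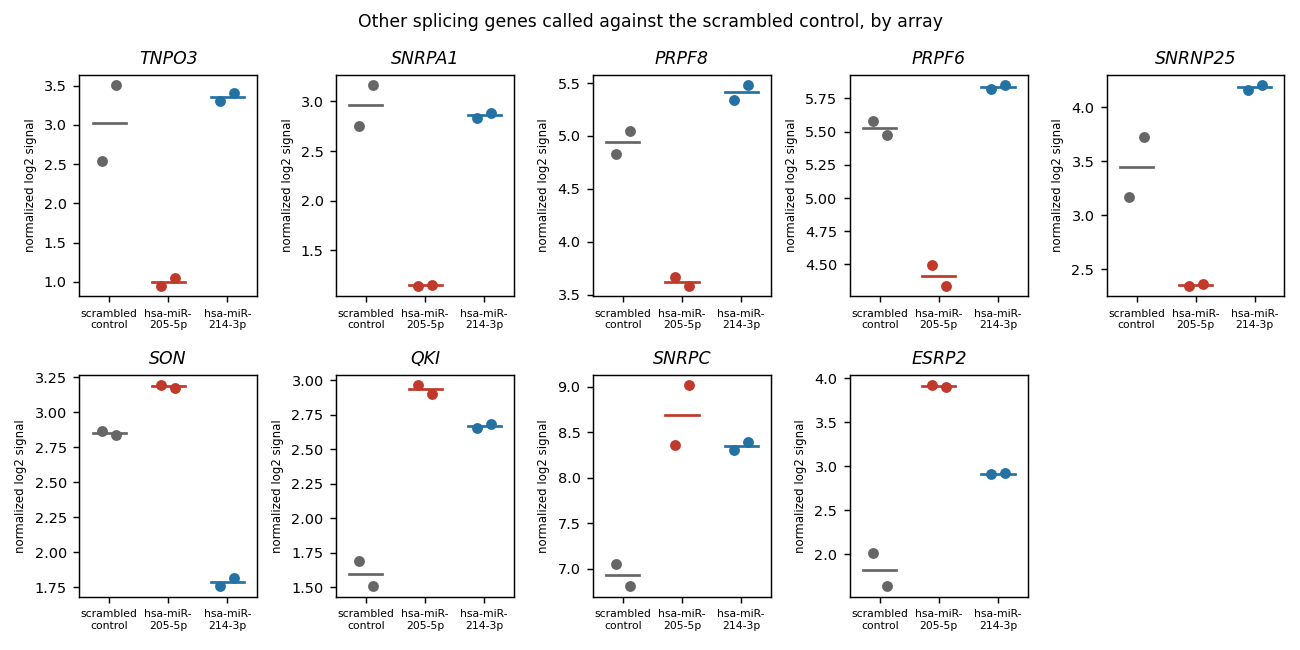
Log2 signal relative to the array's 75th percentile (y axis, a separate range in each panel) on each of the 2 arrays per group (points) with the group mean (line), for the 9 further splicing genes called against the scrambled control with either precursor. TNPO3, SNRPA1, PRPF8, PRPF6 and SNRNP25 are lowest on the hsa-miR-205-5p arrays, SON is lowest on the hsa-miR-214-3p arrays, and QKI, SNRPC and ESRP2 are lowest in the control.

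Between the precursors, 8 of the 97 genes were called lower with hsa-miR-205-5p and 4 higher, or 8.25% and 4.12%, against 11.3% and 9.18% of all genes. The lower group held PRPF8, PRPF6, SNRPA1, SNRNP25 and TNPO3 again, with PRPF4 and the minor-spliceosome genes SNRNP35 and SNRNP48. SNRNP48 was at least 3.85-fold lower (adjusted p = 0.0171), a bound because neither hsa-miR-205-5p array had its probe well above background. The higher group was SON, with a log2 difference of 1.40, SF3B6 with 1.30, TAF15 with 1.08 and BCAS2 with 1.06. With hsa-miR-205-5p replicate 2 left out, 0 of these genes were called against the control with that precursor, as were 0 of all genes. Without either hsa-miR-214-3p array 4 were, or 4.12% against 5.15% of all genes, and without scrambled control replicate 1, 16 were, or 16.5% against 20.6%. With hsa-miR-214-3p the count was 10 without scrambled control replicate 2, or 10.3% against 9.61% of all genes, and 0 without any other array, as over all genes. Between the precursors it was 2 without hsa-miR-214-3p replicate 1, or 2.06% against 5.01%, and 0 without replicate 2, against 2.71%.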

How the data were processed

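The deposited scanner files hold, per the file headers, 1-colour intensity values per spot from Agilent Feature Extraction 11.0, background-subtracted and detrended. A further table by the authors gives log2 values with 1 distribution shared by every array, and served as an alternative. The log2 of the processed intensity minus each array's 75th percentile was used, without control and outlier spots, and spots of a probe were averaged. Probes were named through RefSeq accessions (83.3% of 18464 tested probes matched). limma 3.58.1 (R 4.3.3) fitted the 3 groups on all 6 arrays (3 residual and 2.47 prior degrees of freedom), with Benjamini-Hochberg adjustment over the 18464 probes, or 3411 probe pairs. The fit was tested on simulated data. Depth has no meaning for arrays; 2 per group limit the precision.

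The genes and lists were chosen with earlier results of these data known. Of the 46 genes, those with a called probe or pair and HNRNPA1 are named with all values; also named are the genes listed by symbol, the 3 hnRNP and SR genes with the brightest probes and each further splicing gene called, with genes chosen after their values were seen (HNRNPH2, SRSF12, HNRNPA1L2). Alternatives covered scaling, background correction, filters, fits, probe choice, the methods' t-test and leaving out each array.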

Additional observations from a re-analysis of the deposited data

How the results depend on the processing

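The 2 arrays per group limit the precision. Between the precursors, HNRNPA0 lost its call in 8 of 15 alternatives, PTBP1 in 3 of 15, SRSF4 in 4 of 16 and HNRNPDL in 5 of 16. HNRNPDL and HNRNPR each kept their hsa-miR-205-5p call in 8 of 16 alternatives. SF3B2 between the precursors kept its call in all 16, with adjusted p up to 0.04997, and against the control in 15 of 16 (up to 0.0592). RBFOX2 kept its call in 14 of 16 in both comparisons. These alternatives leave out the other call rules and probe choices. Under the methods' t-test with Benjamini-Hochberg adjustment, 0 of the 42 genes were called with hsa-miR-205-5p, as were 0 of all genes. Over the fold changes of the called genes and probes among the 46 genes and of HNRNPA1, 218 kept direction and side of the threshold, 74 lost the call, 1 gained it and 7 turned sign, and the cause was not tested.

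The 7 sign changes were all of the brightest HNRNPA1 probe, whose log2 fold change with hsa-miR-205-5p was -0.32 with each array scaled to its median, -0.19 after quantile normalization, -0.088 after normexp, -0.19 in the authors' table and -0.022 without scrambled control replicate 2; leaving out each array gave -0.022 to 0.17. With hsa-miR-214-3p it was 0.055 without hsa-miR-214-3p replicate 2 and 0.070 without scrambled control replicate 1, and leaving out each array gave -0.12 to 0.070.

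Scaling to the array median left 0 of the 42 genes called higher with hsa-miR-205-5p and 0 between the precursors, gave 16 further splicing genes with hsa-miR-205-5p and 1 with hsa-miR-214-3p, and moved the median of the 42 genes to -0.28, -0.028 and, between the precursors, -0.24. Over all genes it changed 956 lower and 572 higher with hsa-miR-205-5p to 1876 and 212. With hsa-miR-214-3p 243 and 131 became 278 and 44, and between the precursors 1352 and 1099 became 1801 and 638. Normexp left 0 genes called higher with either precursor and 1 between them, 0 further splicing genes with hsa-miR-214-3p, 1 probe pair with hsa-miR-205-5p and 1 between the precursors, and medians of -0.11 and -0.036; over all genes its calls were 619 lower and 133 higher with hsa-miR-205-5p and 208 and 37 with hsa-miR-214-3p. Between the precursors, normexp called 3.47% of all genes higher, against 2.38% of the 42. The authors' table left 1 gene higher between the precursors, or 2.38% against 8.35% of all genes.

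Without a filter on dim probes, 1 gene was called lower and 0 higher with hsa-miR-205-5p, 0 higher with hsa-miR-214-3p and 0 higher between the precursors, with 2, 0 and 7 further splicing genes and 0 probe pairs in the first and the last comparison. Over all genes that fit called 206 lower and 114 higher with hsa-miR-205-5p, 0 with hsa-miR-214-3p, and 726 and 522 between the precursors. With only probes well above background on all arrays, 2 genes were higher with hsa-miR-205-5p, or 5.13% against 5.11% of all genes. Under that filter 5 further splicing genes were called with hsa-miR-214-3p, where 4.5% of all genes were, and 1 pair between the precursors.

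Fitting only the 4 arrays compared gave 0 genes higher with either precursor, 4 and 0 further splicing genes, and 0 pairs with hsa-miR-205-5p; over all genes it called 405 lower and 212 higher with hsa-miR-205-5p and 0 with hsa-miR-214-3p. The labels do not say what a replicate number stands for, and arrays were not taken as pairs, since the deviations of same-numbered arrays correlated at 0.11, 0.01 and -0.05. With the replicate block, 1 pair was called with hsa-miR-205-5p, and 0 genes higher, 0 further splicing genes and 0 of all genes with hsa-miR-214-3p. An intensity trend with robust spread gave 2 genes higher with hsa-miR-205-5p, or 4.76% against 4.87% of all genes. It gave 5 further splicing genes with hsa-miR-214-3p, or 5.15% against 3.89% of all genes.

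At an unadjusted p, 2 genes were higher and 5 pairs called with hsa-miR-205-5p, and 2 genes lower, 2 higher, 5 further splicing genes and 3 pairs with hsa-miR-214-3p, with 5 pairs between the precursors. Over all genes with hsa-miR-214-3p that rule called 495 lower and 319 higher. With hsa-miR-205-5p it called 4.76% of the 42 genes higher, against 5.7% of all genes. Of all pairs it called 20.1% with hsa-miR-205-5p, 4.66% with hsa-miR-214-3p and 28.3% between the precursors. The methods' t-test, unadjusted, called 5 further splicing genes with hsa-miR-214-3p, or 5.15% against 4.58% of all genes, and 1 pair. Between the precursors it called 1 gene higher, or 2.38% of the 42 against 8.76% of all genes. After Benjamini-Hochberg adjustment it called 0 genes lower, 0 higher, 0 further splicing genes and 0 pairs with hsa-miR-205-5p, 0 genes higher and 0 further splicing genes with hsa-miR-214-3p, and 1 gene higher and 0 pairs between the precursors; over all genes it called 0, 0, and 944 lower with 660 higher. With no limit on fold change, 3 genes were higher with hsa-miR-205-5p and 5 between the precursors, with 19 and 29 further splicing genes; over all genes 9.81% and 17.9% were then higher, and 21.1% and 33.9% called either way. Averaging a gene's probes gave medians of -0.066 with hsa-miR-205-5p and -0.18 between the precursors. Taking its dimmest probe gave medians of -0.11 and -0.23, and 1 gene lower with hsa-miR-205-5p, or 2.38% against 8.94% of all genes. With hsa-miR-214-3p it gave 1 further splicing gene, or 1.03% against 2.96% of all genes.

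Leaving out 1 array at a time gave 0 to 5 genes lower, 0 to 2 higher, 0 to 16 further splicing genes and 0 to 5 pairs with hsa-miR-205-5p. It gave 0 to 4 genes higher and 0 to 10 further splicing genes with hsa-miR-214-3p. Between the precursors it gave 1 to 6 genes lower, 0 to 2 higher, 0 to 15 further splicing genes and 0 to 3 pairs. Where 1 array was left in a group, its spread was taken from the other groups. The calls over all genes also rose and fell in these fits. Over all pairs, the share called was counted only for the fit of the results above and at an unadjusted p.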
